A study of Homo sapiens with 6 samples.

Results

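Interferon regulatory factors (IRFs) are transcription factors that bind DNA through a shared N-terminal domain and switch on interferons and the genes that interferons induce. The members described here are the transcript clusters whose only gene symbol in the array's probe annotation is that of an IRF. The 8 genes described are IRF1, IRF2, IRF3, IRF4, IRF5, IRF7, IRF8 and IRF9, each with 1 cluster, of 33297 clusters and 18417 genes with a cluster of their own. The study asked which mediators accompany an anti-HIV effect of transfection with an empty plasmid, in HEK293 cells, a human embryonic kidney line obtained from ATCC. Total RNA was read on 6 Affymetrix Gene 1.0 ST arrays, 3 labelled control and 3 labelled treatment. Its labels do not settle what the control cells received: their source field reads transient vector and that of the treatment cells Neo vector, whereas the design text compares untreated cells with cells given the plasmid pCMV9. The labels state neither a dose nor a time after transfection.

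As background, IRF3 is made constitutively and waits in the cytoplasm. Sensors of foreign DNA or RNA lead to its phosphorylation by the kinases TBK1 and IKKε, and it then enters the nucleus and starts transcription of interferon genes. IRF7 is activated in the same way but is itself induced by interferon, which amplifies the response. Secreted interferon then acts through IRF9, the DNA-binding subunit of ISGF3, a complex that recognises the interferon-stimulated response element (ISRE). IRF1 is induced by interferon and NF-kB and activates antigen presentation and antiviral genes, and IRF2 binds the same sites and is known mainly as its antagonist. IRF5 acts downstream of Toll-like receptors, and IRF4 and IRF8 are known for their roles in lymphoid and myeloid cells.

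Promoter sequences show where the induction signals known for this family could act. Windows run from 250 bases before to 50 bases after a RefSeq start (GRCh38.p14), and a gene may have several. The table used here had windows for 5 of the 8 genes, IRF1, IRF4, IRF5, IRF8 and IRF9. IRF1 (chr5:132490724-132491023, minus strand) and IRF9 (chr14:24161015-24161314, plus strand) are shown because their treatment arrays stood above all control arrays and their windows held motif matches. IRF8 met the former condition, but its windows in the table held no match. ISG15 (chr1:1013247-1013546, plus strand), which encodes a ubiquitin-like antiviral modifier, is shown as a textbook example of an ISRE gene. Each is written 5′ to 3′ on the gene's strand. Capitals mark matches, on either strand, to the gamma-activated site TTCNNNGAA bound by STAT dimers, to the NF-kB consensus, and to the ISRE core, spelled GAAA, then NN, then GAAA.
IRF1: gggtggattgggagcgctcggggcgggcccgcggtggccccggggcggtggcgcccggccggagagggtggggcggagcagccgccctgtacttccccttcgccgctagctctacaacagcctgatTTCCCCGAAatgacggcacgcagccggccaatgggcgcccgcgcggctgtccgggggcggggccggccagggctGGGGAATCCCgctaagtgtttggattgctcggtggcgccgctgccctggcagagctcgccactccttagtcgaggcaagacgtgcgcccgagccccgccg
IRF9: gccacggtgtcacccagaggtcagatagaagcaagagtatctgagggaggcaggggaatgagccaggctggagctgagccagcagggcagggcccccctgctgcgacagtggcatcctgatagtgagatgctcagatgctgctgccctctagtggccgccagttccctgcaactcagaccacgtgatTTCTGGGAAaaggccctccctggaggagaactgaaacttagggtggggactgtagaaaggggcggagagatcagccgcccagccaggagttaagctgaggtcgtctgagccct
ISG15: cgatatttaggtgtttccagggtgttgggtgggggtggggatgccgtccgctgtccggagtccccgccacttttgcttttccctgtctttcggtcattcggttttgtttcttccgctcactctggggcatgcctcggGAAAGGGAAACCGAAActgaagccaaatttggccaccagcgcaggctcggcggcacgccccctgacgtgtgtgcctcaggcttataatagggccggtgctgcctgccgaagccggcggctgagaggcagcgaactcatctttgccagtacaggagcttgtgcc

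The IRF1 window held a gamma-activated site, TTCCCCGAA, from -124 to -116 relative to the gene start, and an NF-kB match, GGGGAATCCC, from -50 to -41. The IRF9 window held a gamma-activated site, TTCTGGGAA, from -63 to -55, and no ISRE core. ISG15 held 2 overlapping ISRE cores, GAAAGGGAAA from -113 to -104 and GAAACCGAAA from -107 to -98. The windows in the table for IRF4, IRF5 and IRF8 matched none of these 3 motifs. Those of IRF8 were chr16:85902580-85902879 and chr16:85902765-85903064. Sequence outside the windows, including any other start of these genes, was not searched. Of all 35116 windows in the table, 7.66% held the gamma-activated site, 11.3% the NF-kB consensus and 3.57% the ISRE core. In a list of 38 genes given as driven by ISGF3, 30 had a window. The ISRE core was in a window of 21 of these 30, or 70.0%, against 4.38% of all 27305 genes. A match describes letters in a window, not a site in use.

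In the treatment arrays 2 of the 8 genes rose, IRF7 and IRF1, and 0 fell (limma, adjusted p under 0.05). Among all clusters, 119 were called higher (0.357%) and 5 lower (0.015%), so that 0.372% were called in either direction. On 5 of the 8 genes, IRF1, IRF2, IRF7, IRF8 and IRF9, every treatment array lay above every control array, which is 62.5% of the family, and this held for 7.47% of all clusters. For 1 gene, IRF5, every treatment array lay below, as for 7.1% of all clusters. At an unadjusted p under 0.05, 5 genes were higher and 1 was lower, against 5.01% and 2.29% of all clusters. RNA of whole cultures cannot tell more transcript per cell from more cells that respond. The median change over the 8 genes was 0.63 on the log2(intensity + 16) scale, and over all clusters it was 0.01. Adding 16 to each intensity before taking log2 damps noise near 0 and understates the change of dim clusters.

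**Figure D1:**
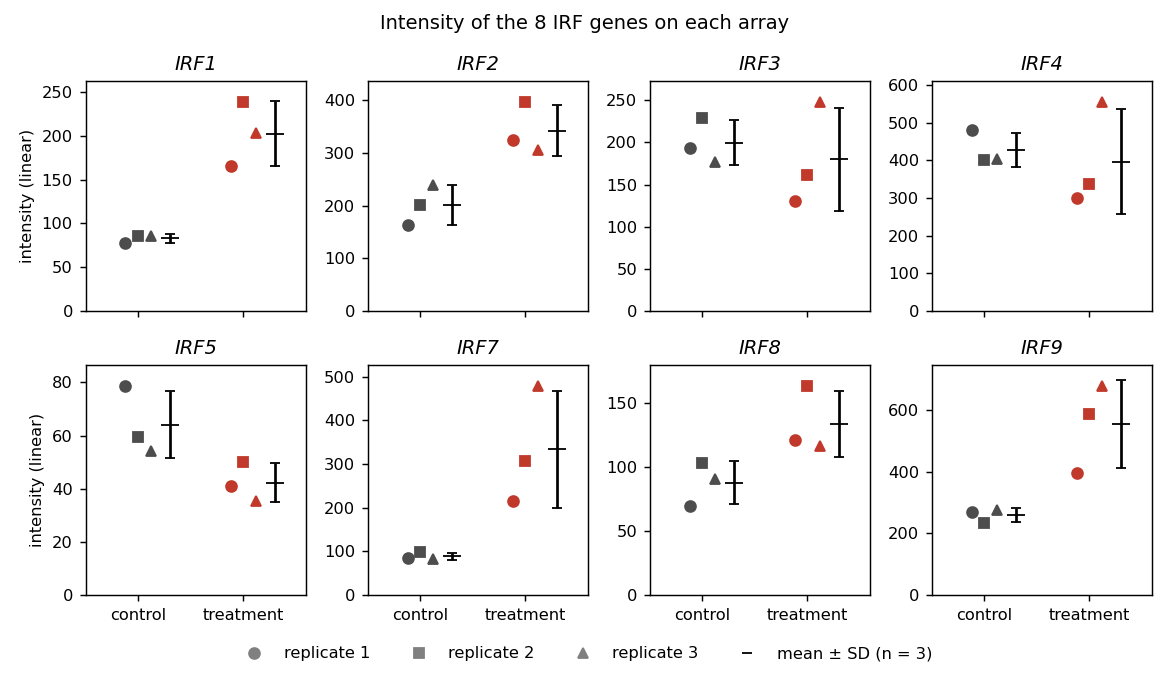
Linear intensity (vertical axis, from 0, with its own scale per gene) of the 8 IRF genes on the 3 control and 3 treatment arrays. Symbols give the replicate number, and the black bar beside each group gives the mean ± SD (n = 3); IRF1, IRF2, IRF7, IRF8 and IRF9 have all treatment arrays above all control arrays, and IRF3 and IRF4 overlap.

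Median intensity per array lay between 77.2 and 84.2. Treatment replicate 3 had the lowest mean correlation with the other arrays, 0.963, against 0.972 to 0.978 for the rest. Of 8 markers of the line (keratins, neurofilaments and others), 8 had a control mean above 50.7, the 95th percentile of the control means of 381 olfactory receptor clusters, genes not expected to be active here, which serve as a reference for dim signal. In limma 0 of the 8 passed, and without adjustment 1 had p under 0.05. The lowest p were those of the kidney transcription factor PAX2, with means of 56.0 and 105.5 (log2 difference 0.76, adjusted p = 0.328), and the filament protein VIM, with 1325 and 1085 (-0.29, adjusted p = 0.755). Of 14 leukocyte markers, 8 lay below that reference on all 6 arrays, among them PTPRC (CD45), with means of 23.4 and 17.1. The other 6 had a control mean above it, among them CD14 (182), CD79A (178), SPI1 (106) and NKG7 (101). The labels do not tell whether the 3 arrays of a group stem from different cultures, and every p-value here therefore reflects array-to-array spread that may be technical.

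IRF7, the inducible amplifier of interferon transcription, had the largest change of the family. Control intensities were 85.6, 98.5 and 82.2, and treatment intensities 215, 308 and 478, each in the order of replicates 1 to 3. The groups were separated by a wide gap, and treatment replicate 3 was the highest. Its mean went from 88.7 ± 8.61 to 333 ± 133.6 (SD, n = 3), 3.76 times the control intensity. On the log2 scale the rise was 1.67 ± 0.258 (SE; 95% interval 1.12 to 2.23; limma, adjusted p = 0.00699), the 84th lowest p of the table. Without treatment replicate 3 it was 1.39 (adjusted p = 0.0316). Without control replicate 1 the call was lost at a rise of 1.65 (adjusted p = 0.102).

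IRF1, which activates antigen presentation genes, had control intensities of 77.3, 85.5 and 85.8 and treatment intensities of 165.5, 239 and 204. The control arrays lay close together and the groups did not overlap. Its mean went from 82.9 ± 4.82 to 203 ± 36.6 (SD, n = 3), 2.44 times the control intensity. The log2 rise was 1.13 ± 0.205 (SE; 95% interval 0.69 to 1.57; limma, adjusted p = 0.0254). The call was lost without any 1 of control replicates 1, 2 and 3 or treatment replicates 2 and 3, with rises of 1.02 to 1.15 and adjusted p between 0.0823 and 0.285.

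IRF9, the DNA-binding subunit of ISGF3, read 270, 235 and 276 on control and 397, 589 and 678 on treatment arrays. The groups did not overlap, and the treatment arrays kept the order seen for IRF7, with replicate 3 highest and replicate 1 lowest. The control mean was 260 ± 21.9 and the treatment mean 555 ± 143.6 (SD, n = 3), 2.13 times as high. The log2 difference of 1.02 ± 0.227 (SE; 95% interval 0.53 to 1.51) did not pass over all clusters (limma, adjusted p = 0.136), and its p was the 139th lowest, where 124 clusters passed. Without treatment replicate 1, its lowest treatment array, the difference was 1.23 and passed (adjusted p = 0.0189).

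IRF2, the antagonist of IRF1, read 162.5, 200.4 and 238 on control and 325, 397 and 305 on treatment arrays. The lowest treatment array was above the highest control array. The log2 difference was 0.73 ± 0.213 (SE; 95% interval 0.28 to 1.19; limma, adjusted p = 0.44), which did not pass. IRF8, a factor of myeloid and B cells, gave 69.8, 103 and 90.9 in control and 121.5, 163 and 116 in treatment arrays. Its groups were separated by a narrow margin, with a log2 difference of 0.53 ± 0.216 (SE; 95% interval 0.06 to 0.99; limma, adjusted p = 0.67). For IRF2 and IRF8, as for IRF1, treatment replicate 2 was the highest array.

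IRF3, the constitutive partner of IRF7, read 193, 229 and 177 on control and 130.5, 161.5 and 248 on treatment arrays. Treatment replicate 3 was the highest of the 6 arrays and treatment replicate 1 the lowest, so the groups overlapped. The log2 difference was -0.18 ± 0.239 (SE; 95% interval -0.69 to 0.34; limma, adjusted p = 0.892), an interval that leaves out a 2-fold change in either direction on this scale. IRF4, known from lymphocytes, gave 481, 400.4 and 405 in control and 299, 337 and 556 in treatment arrays. It had the same pattern, with treatment replicate 3 highest and treatment replicate 1 lowest, and a log2 difference of -0.15 ± 0.241 (SE; 95% interval -0.67 to 0.37; limma, adjusted p = 0.914). Without treatment replicate 3, the array least like the others, the differences were -0.41 for both genes, which did not pass either.

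IRF5, which acts downstream of Toll-like receptors, read 78.6, 59.6 and 54.3 on control and 41.2, 50.3 and 35.5 on treatment arrays. Every treatment array was below every control array, by a small margin. The log2 difference was -0.46 ± 0.209 (SE; 95% interval -0.91 to -0.01; limma, adjusted p = 0.682) and did not pass. The cluster was dim: its treatment mean of 42.3 lay under the 95th percentile of olfactory receptor clusters in those arrays, 63.4, and its control mean of 64.2 lay above that of the control arrays.

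**Figure D2:**
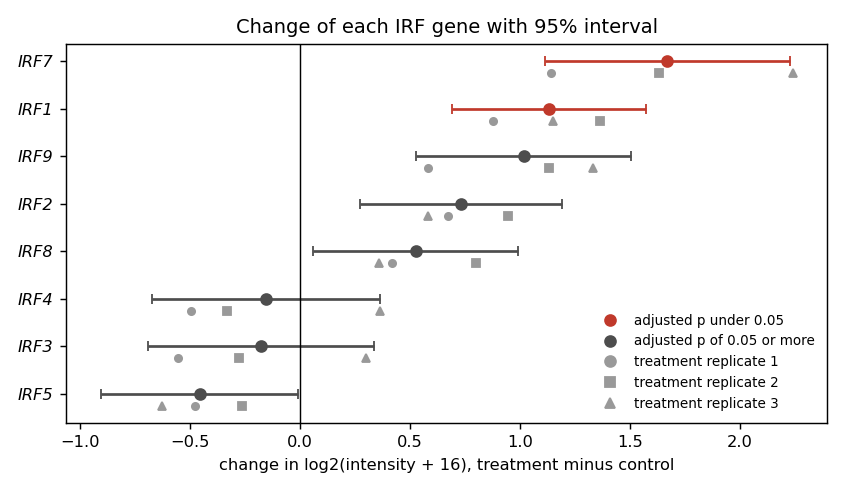
Change of each IRF gene in log2(intensity + 16), treatment minus control (horizontal axis), with its 95% interval from limma; red marks the 2 genes that passed and grey symbols give each treatment array relative to the control mean. IRF7 and IRF1 lie at 1.67 and 1.13, and the arrays of IRF3 and IRF4 fall on both sides of 0.

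The genes upstream of the family were described by lists. Of 18 measured nucleic acid sensors and adaptors, 6 rose and 0 fell, while 12 did not pass. Their median log2 change was 0.26. The list shares 2 genes, RIGI and IFIH1, with the list of genes given as driven by ISGF3. Of its other 16 genes 4 rose, namely DHX58, IFI16, TLR3 and TRIM25. Whether interferon drove these rises was not tested. The RNA helicase RIGI rose from 282 ± 19.7 to 1761 ± 312 (SD, n = 3), its relative IFIH1 (MDA5) by 2.45 ± 0.209 (SE) on the log2 scale, the endosomal receptor TLR3 by 2.39 ± 0.219 and the DNA-binding protein IFI16 by 1.86 ± 0.222. The adaptors that link sensors to IRF3 were not among those called, and they are named here for their role. The mitochondrial adaptor MAVS gave means of 520 and 368 (log2 difference -0.46 ± 0.205, adjusted p = 0.68), and STING1, the adaptor of cytosolic DNA sensing, 263 and 253 (-0.06 ± 0.231, adjusted p = 0.97).

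Of 16 measured kinases and scaffolds that activate IRFs, 0 passed in limma and 0 had an unadjusted p under 0.05, and their median was 0.02. TBK1, the main IRF3 kinase, gave 230.3, 243 and 262 in control and 346, 301 and 227 in treatment arrays (0.22 ± 0.211, adjusted p = 0.832). Its relative IKBKE (IKKε) gave means of 68.4 and 79.8 (0.18 ± 0.22, adjusted p = 0.872). The lowest p values in the list were those of TYK2 (-0.43 ± 0.208), TBKBP1 (-0.30 ± 0.236), IKBKB (-0.23 ± 0.196) and IKBKG (0.28 ± 0.264).

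Interferon genes such as IFNB1 are direct targets of IRF3 and IRF7. The list took in interferon genes of every type, IFNG and IFNE included. IFNA1, IFNA4, IFNA7, IFNA14 and IFNA17 had no cluster of their own. Of 16 interferon genes measured, 3 rose and 0 fell, while 13 did not pass. The median was 0.22. IFNL1, a type III interferon, gave 16.4, 21.7 and 27.9 in control and 114, 178 and 162 in treatment arrays, a rise of 2.13 ± 0.222 (SE). IFNL2 rose by 2.40 ± 0.221 and IFNB1 by 1.75 ± 0.228, and IFNL3 gave 0.85 ± 0.229 (adjusted p = 0.346). Olfactory receptor clusters, which are dim as well, had a median of 0.12, and only 1 of the 16 interferon genes had a control mean above the 95th percentile of that class. The treatment mean of IFNB1, 48.5, lay under that percentile of the treatment arrays, 63.4. Those of IFNL1 (151) and IFNL2 (97.1) lay above it. IFNL2 and IFNL3 are near-identical, so their probes may share signal. On the plain log2 scale 0 of the 16 were called.

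Among receptor and signalling genes ahead of ISGF3, 14 receptors, JAKs and STATs were measured. Of these 0 passed in limma and 0 had an unadjusted p under 0.05, and the median was -0.03. JAK1 and TYK2 are also in the list of kinases. Of 38 measured genes listed as driven by ISGF3, 35 rose, 0 fell and 3 (ADAR, EIF2AK2 and IFITM2) did not pass, with a median of 2.75. Which factor acted on these genes here was not tested. RSAD2 (viperin) rose by 4.59 ± 0.238 (SE), IFIT2 by 4.31 ± 0.242, IFI44 by 4.11 ± 0.229 and IFIT3 by 3.40 ± 0.196. ISG15 gave 59.7, 54.3 and 51.2 in control and 276, 348 and 487 in treatment arrays. Measured from the control mean, this list had a median of 2.29, 2.86 and 3.15 in treatment replicates 1, 2 and 3. IRF7 and IRF9 had that order, and so did IRF3 and IRF4, whose groups overlapped. Not every gene of the list kept it: ISG15 did, whereas RSAD2, IFIT2, IFI44 and IFIT3 were highest in replicate 2. The summed intensity of the list was also highest there, at 38924, 52363 and 48710 in treatment replicates 1, 2 and 3. IRF7 stood at 1.14, 1.63 and 2.24 in those arrays, and IRF9 at 0.58, 1.13 and 1.33.

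Of 25 measured genes reported as IRF1 targets, 11 rose and 0 fell, while 14 did not pass. The median was 0.92. The virion-tethering protein BST2 rose by 2.79 ± 0.277 (SE), the chemokine CCL5 by 2.58 ± 0.228, IFI35 by 2.48 ± 0.281 and TLR3 by 2.39 ± 0.219. The list shares 3 genes, BST2, IFI35 and ISG20, with the ISGF3 list. Of its other 22 genes 8 rose, among them the immunoproteasome subunit PSMB9 (2.37 ± 0.313) and TLR3, which is also in the list of sensors. The count of 11 was 6 without control replicate 1 and 2 on the plain log2 scale. Of 16 brakes on IRF activity 2 rose, the ubiquitin ligase TRIM21 (1.87 ± 0.227) and the ISG15 protease USP18 (1.84 ± 0.195), and the median was 0.03. USP18 is also in the ISGF3 list, and of the other 15 brakes 1 rose. That gene, TRIM21, is also counted among the IRF1 targets. SOCS1, which did not pass, is in both lists too. SOCS3 (0.88 ± 0.293, adjusted p = 0.563) and ATF3 (0.63 ± 0.205, adjusted p = 0.546) did not pass. The IRF2-binding corepressors IRF2BP1, IRF2BP2 and IRF2BPL, named for their role, gave -0.04 ± 0.251, -0.15 ± 0.214 and 0.07 ± 0.246.

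**Figure D3:**
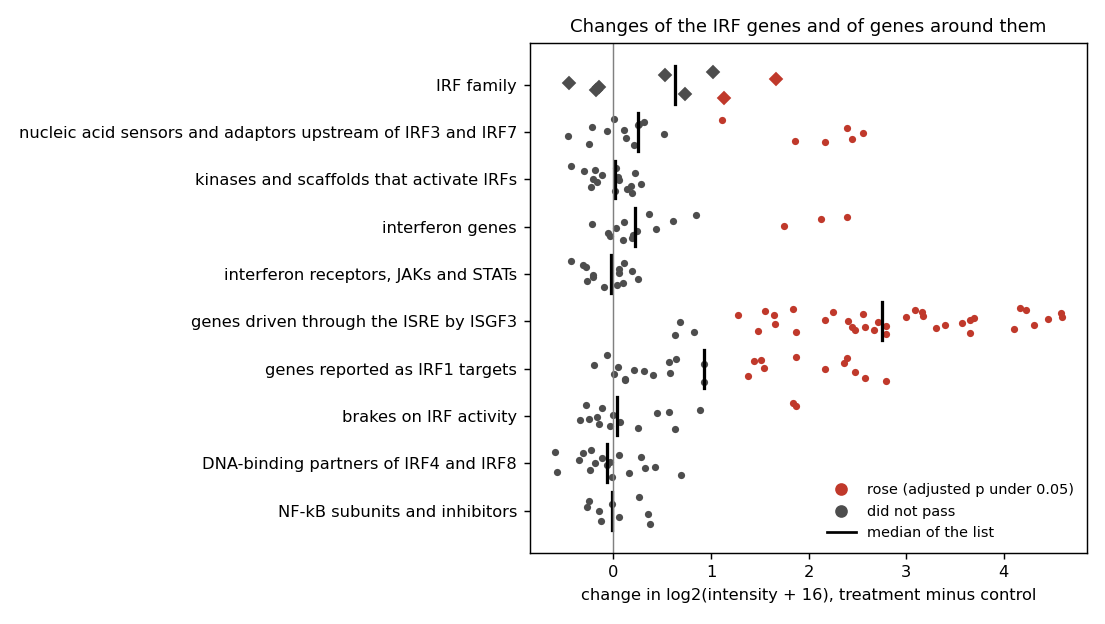
Change in log2(intensity + 16), treatment minus control (horizontal axis), of the 8 IRF genes (diamonds) and of the genes in 9 lists (points), with the median of each as a black bar and genes that rose in red. The ISGF3 list has its median at 2.75 and the kinase list at 0.02.

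The factors that pair with IRF4 and IRF8 on DNA, such as SPI1 and BATF, gave 0 calls among 17 measured genes in limma. Their median was -0.07, and the 4 with an unadjusted p under 0.05 were SPIC (-0.60 ± 0.196), BATF2 (0.69 ± 0.25), BCL6 (-0.58 ± 0.236) and IKZF3 (0.42 ± 0.192), with adjusted p between 0.557 and 0.68. Among the leukocyte markers 1 of 14 rose, the lysosomal protein CD68, from 105 ± 23.1 to 303 ± 85.8 (SD, n = 3). The summed intensity of the 14 markers, CD68 included, was 807 to 932 in control and 974 to 1390.4 in treatment arrays. Treatment replicate 3 was highest. CD68 itself gave 94.2, 131.9 and 89.9 in control and 203.8, 354.8 and 350 in treatment arrays. With CD68 left out, the sums of control and treatment arrays overlap, and the other 13 markers did not pass. In this kidney line the control mean of IRF8, 87.9, lay above the olfactory receptor reference of 50.7. It lay below the control means of the markers CD14 (182), CD79A (178), SPI1 (106) and NKG7 (101). What the signal of IRF8 stems from was not tested. NF-kB subunits and inhibitors, which feed IRF1, gave 0 calls among 9 in limma and 0 at an unadjusted p under 0.05, with a median of -0.01 and NFKBIA at 0.36 ± 0.208.

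Genes with the most similar profile were found by the root mean square difference, over the 6 arrays, of log2 values taken relative to each gene's control mean. The nearest to IRF1 were the helicase-like ZNFX1 (0.0354), the ubiquitin ligase TRIM56 (0.0642) and the ETS factor ETV7 (0.0924). ZNFX1 gave 199.9, 222 and 211 in control and 418, 566 and 502 in treatment arrays, with replicate 2 highest as for IRF1. The nearest to IRF7 were the guanylate-binding protein GBP4 (0.151), the apolipoprotein APOL2 (0.154) and the peptide transporter subunit TAP2 (0.16). TAP2 gave 201, 232 and 208 in control and 475, 670 and 817 in treatment arrays, with replicate 3 highest as for IRF7. The nearest to IRF9 were BCL2L14 (0.084), the MHC class I light chain B2M (0.167) and the pancreatic secretory protein REG1A (0.169), of which BCL2L14 and REG1A were dim. GBP4 was dim too, with control intensities of 7.49 to 7.54. Within the family, IRF9 was the member nearest to IRF1 (0.192, rank 21 of all genes), and IRF5 the farthest from it (1.14).

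Genes next to the members were described as well. The nearest genes on either side that the RefSeq table (GRCh38.p14) types as protein-coding had a cluster of their own for 14 of 16 positions, and 0 of the 14 passed in limma, while 3 had an unadjusted p under 0.05. Beside IRF7, PHRF1 gave 0.02 ± 0.219 and CDHR5 0.19 ± 0.293, and beside IRF1, SLC22A5 gave 0.03 ± 0.235 and IL5 0.26 ± 0.219. REC8, next to IRF9, gave 0.76 ± 0.233 (SE; adjusted p = 0.507), from 37.0, 55.4 and 44.1 in control to 82.5, 65.5 and 121.5 in treatment arrays, the largest difference among them, and RNF31 on the other side gave 0.02 ± 0.231. FOXF1, next to IRF8, gave 0.56 ± 0.218 (adjusted p = 0.662), beside the 0.53 of IRF8 itself. EXOC2, next to IRF4, was the third with an unadjusted p under 0.05 and was lower, at -0.47 ± 0.205 (adjusted p = 0.68). The neighbours of IRF3, SCAF1 and BCL2L12, were lowest in treatment replicate 1, as IRF3 was: SCAF1 gave 222, 233 and 362 in the treatment arrays and BCL2L12 208, 214 and 293.

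Across the settings tried, directions of the 5 higher genes held while the calls did not. IRF7 kept its call in 15 of 19 alternatives, with rises from 1.39 to 1.94, and lost it on the plain log2 scale (adjusted p = 0.3), with offsets of 1 (0.164) and 50 (0.0688) and without control replicate 1. IRF1 lost it in 9 of 19, and over all 19 its rise ran from 0.92 to 1.28. IRF9 gained a call in 4 of 19, at differences of 1.02 in 3 of them and 1.23 without treatment replicate 1, and over all 19 its difference ran from 0.86 to 1.23. IRF2 and IRF8 gained none, with ranges of 0.60 to 0.86 and 0.39 to 0.63.

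**Figure D4:**
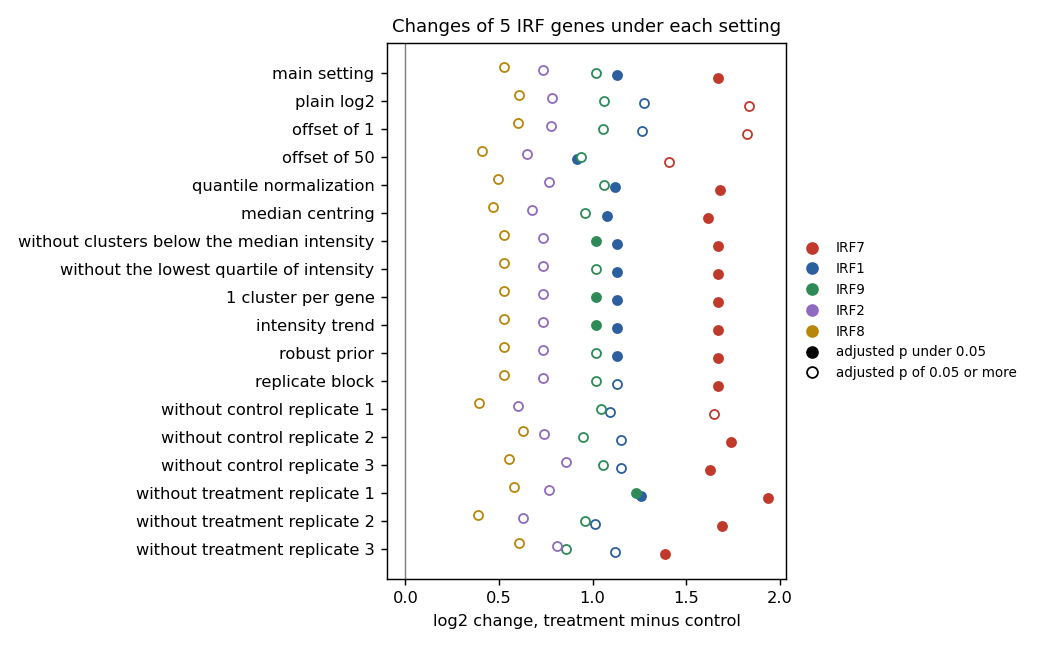
Log2 change, treatment minus control (horizontal axis), of IRF7, IRF1, IRF9, IRF2 and IRF8 under the main setting and each alternative (rows); filled points have an adjusted p under 0.05. All 5 genes stay above 0 in every row, and IRF7 lies between 1.39 and 1.94.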

How the data were processed

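The deposited table holds linear intensities, 1 per transcript cluster and array, made by the authors with Partek per the submitters' processing notes; how background, normalization and probe summary were handled is not stated in these sources. Columns were matched to samples by accession. The platform annotation of 2016 gave 1 symbol to 19460 of 33297 clusters; a gene with several was represented by the brightest. Values were transformed to log2(intensity + 16), and all clusters were fitted with limma 3.58.1 (lmFit, eBayes; R 4.3.3), two-sided and with no block; p was adjusted over the table by Benjamini-Hochberg, with a threshold of 0.05. The fit was tested on simulated data. The precision is limited by the number of arrays, 3 per group. The members and lists were chosen with earlier results of these data known, so lists have no set test. Named genes are all members, up to 4 genes per list with the lowest p, and the 3 nearest profiles of IRF1, IRF7 and IRF9; others are named for their role or position. Promoter sequences are RefSeq's (GRCh38.p14). Alternatives covered offset, normalization, dim clusters, variance prior, replicate block, threshold and leaving out each array.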

Additional observations from a re-analysis of the deposited data

How the results depend on the processing

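The count of 2 IRF genes called was 0 when log2 was taken plainly or after adding 1, and 1 with an offset of 50, at an adjusted p under 0.01 or with the replicate block; leaving out each array gave 0 to 3. The count of 124 clusters over the table was 40 on the plain log2 scale, 58 after adding 1, and 69 (without control replicate 1) to 129 when an array was left out. Leaving out each array, the differences ran from -0.413 to 0.0122 for IRF3 and from -0.412 to 0.0182 for IRF4, positive only without treatment replicate 1. Replicate numbers gave no clear sign of pairing: correlations of same-numbered deviations from the group means were -0.166, 0.0839 and -0.356. Those of other-numbered arrays ran from -0.187 to 0.363. Deviations within a group sum to 0, so these values depend on each other and do not exclude pairing. With the block, adjusted p was 0.0101 for IRF7 and 0.0891 for IRF1. In the fit of 1 cluster per gene all genes had 1 common SE of 0.247, so that its low p rests on a fully pooled variance. In the lists, calls fell with a plain log2 from 35 to 23 for the ISGF3 list and from 11 to 2 for IRF1 targets. They fell from 6 to 3 for sensors, from 3 to 0 for interferon genes and from 2 to 1 for brakes. The causes were not tested.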
